A study of Mus musculus with 3 samples.

Results

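Genes of innate sensing, NF-kappaB signalling and acute inflammatory output were examined in microvascular fragments of the adult mouse brain. The set holds 46 of the 56941 genes of the count table, chosen by gene symbol for their role: Toll-like receptors, NOD sensors and the inflammasome, adaptors and kinases, NF-kappaB subunits, their inhibitors, and cytokines with the acute-phase gene Lcn2. All 46 were found. The set and the gene lists beside it were chosen with earlier results of these data known. Their shares against all genes are thus descriptions and no independent evidence. Microvascular fragments are short pieces of small vessel, freed from brain tissue with mechanical force and enzymes, in which endothelial cells remain together with cells attached to them. The 3 libraries of polyadenylated RNA, made from brains of the wild-type strain C57BL/6J, form a single group (n = 3), with no treated, sorted or whole-brain sample beside them. The labels give neither sex, exact age nor batch, and describe no culture after isolation. They do not say outright that each library is another mouse; the design text speaks of 3 wild-type mice. No contrast between conditions exists, and the data answer how abundant these transcripts were and how far the 3 libraries differed.

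Toll-like receptors recognise microbial lipids, proteins and nucleic acids at the cell surface or in endosomes, and NOD proteins and NLRP3 sense microbial products and damage in the cytosol. The receptors signal through the adaptors MyD88 and TRIF to kinases of the IRAK, RIPK and IKK families. IKK marks the IkappaB inhibitors for breakdown and so frees NF-kappaB dimers, which switch on cytokine genes and also the genes of their own inhibitors, among them Nfkbia and Tnfaip3. In the brain, microglia and border macrophages are rich in many of these receptors, while endothelium responds to circulating cytokines and bacterial products with adhesion molecules.

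Depth ranged from 128428355 to 150449539 counts per library, and levels are given as CPM, in which counts are divided by library totals adjusted by TMM (a trimmed mean of gene ratios). A count of 0 would allow up to 0.0231 CPM in the shallowest library (3 counts), and none of the 46 genes had a count of 0. Endothelial markers were high in every library, with a summed level of 12372 to 14882 CPM over 8 genes. The 9 microglial markers summed to 5699 to 7400 CPM, so microglial RNA was plentiful too. The 5 border macrophage markers summed to 15.3 to 27.3 CPM and 8 neutrophil markers to 51.3 to 71.1 CPM, most of it Csf3r, which microglia also express; the neutrophil marker Ly6g was at 0 counts in replicate 2. Replicate 2 stood apart by pituitary hormone genes (summed level 1430.8 CPM, against 16.9 and 19.0 CPM in the other libraries) and replicate 1 by erythroid genes (1088 CPM, against 62.5 and 134 CPM) and by mitochondrial transcripts (3.29% of counts, against 1.65% and 1.75%). In such bulk samples, fewer cells of a type and less RNA per cell cannot be told apart.

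Nearly the whole pathway was transcribed in the fragments. Of the 46 genes, 42 (91.3%) were at 1 CPM or more in every library, against 43.3% of the 30513 genes with any count, and the 4 that were not are Tlr8, Il1b, Il6 and Tnf. Together the 46 genes held 0.200%, 0.234% and 0.239% of the counts in replicates 1, 2 and 3. Their median level was 27.4 CPM. Scaled to exon length, Nfkbia, which encodes the inhibitor IkappaB alpha, had the highest level and Tlr8 the lowest.

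**Figure D1:**
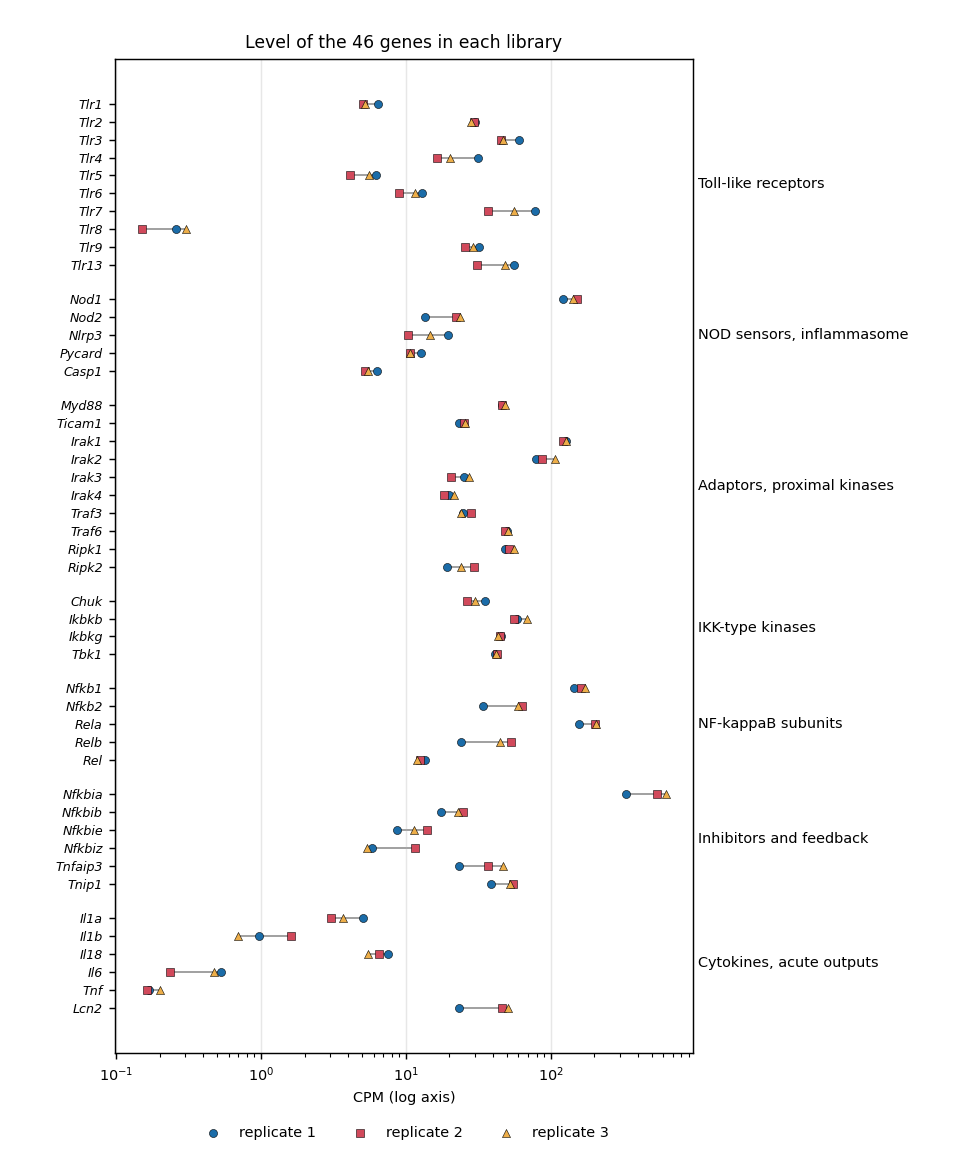
Level in CPM (log axis) of each of the 46 genes, by role, with 1 point per library joined by a line. Nfkbia lies highest, at 330.4 to 631 CPM, and Tlr8, Il6 and Tnf lie below 1 CPM in all 3 libraries.

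All 10 Toll-like receptor genes gave counts, and receptors for nucleic acids were among the most abundant. Tlr7, the endosomal receptor for single-stranded RNA, had 78.1, 37.1 and 55.6 CPM in replicates 1, 2 and 3. Tlr3, which binds double-stranded RNA, had 61.0, 45.7 and 46.6 CPM, and 7.32% of its exonic length lies under exons of Gm45542 on the other strand. The level of Tlr13, a rodent receptor for bacterial ribosomal RNA, was 55.5, 31.2 and 48.8 CPM. Each of these was highest in replicate 1. Tlr9, the receptor for unmethylated CpG DNA, was steadier, with 32.2, 25.8 and 29.3 CPM. For Tlr8, a second RNA receptor, only 34, 21 and 44 counts were found, or 0.261, 0.150 and 0.303 CPM; the exact 95% Poisson intervals, 0.181 to 0.365, 0.0930 to 0.230 and 0.220 to 0.407 CPM, overlap. These intervals cover counting error only.

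Among the receptors of the cell surface, Tlr2, which senses bacterial lipoproteins, was almost equal in the 3 libraries at 30.3, 29.7 and 28.3 CPM. Tlr4, the receptor for lipopolysaccharide, was not, with 31.5, 16.4 and 20.1 CPM. Ly96, its co-receptor and no member of the set, had 5.08 ± 1.23 CPM (SD, n = 3). Per kilobase of exon, Ly96 was not the lower of the pair, with 17.1 ± 4.39 against 14.0 ± 4.92 for Tlr4. The partners of Tlr2 were lower: Tlr6 had 12.9, 8.95 and 11.5 CPM. Tlr1 had 6.39, 5.06 and 5.21 CPM. Tlr1 and Tlr6 share near-identical sequence (10.6% and 9.25% of their 75-base stretches occur in transcripts of other genes, mainly each other's), so reads may be split between them or lost. Tlr5, the flagellin receptor, had 6.22, 4.10 and 5.59 CPM.

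Levels of different genes can be set side by side only per length, here as counts per kilobase of exon, scaled to the same total in each library. On that scale the nucleic acid receptors and Tlr2 led. Tlr7 had 47.8 ± 17.2, Tlr13 35.9 ± 9.65, Tlr3 33.7 ± 5.87, Tlr2 33.5 ± 1.97 and Tlr9 28.7 ± 3.02 (mean ± SD, n = 3), and neighbours in this order differed by less than the larger of their SDs, except Tlr2 and Tlr9. Tlr4 followed at 14.0 ± 4.92, Tlr6 at 10.2 ± 1.77, Tlr1 at 5.69 ± 0.777 and Tlr5 at 3.79 ± 0.744, and Tlr8 lay apart at 0.227 ± 0.0704. Within single libraries the order of some pairs was not fixed in size: the length-scaled level of Tlr7 was 2.06, 1.22 and 1.62 times that of Tlr9 in replicates 1, 2 and 3, and that of Tlr4 was 0.565, 0.300 and 0.384 times that of Tlr2. These ratios do not depend on library scaling, and the pairs were chosen after their values were seen.

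**Figure D2:**
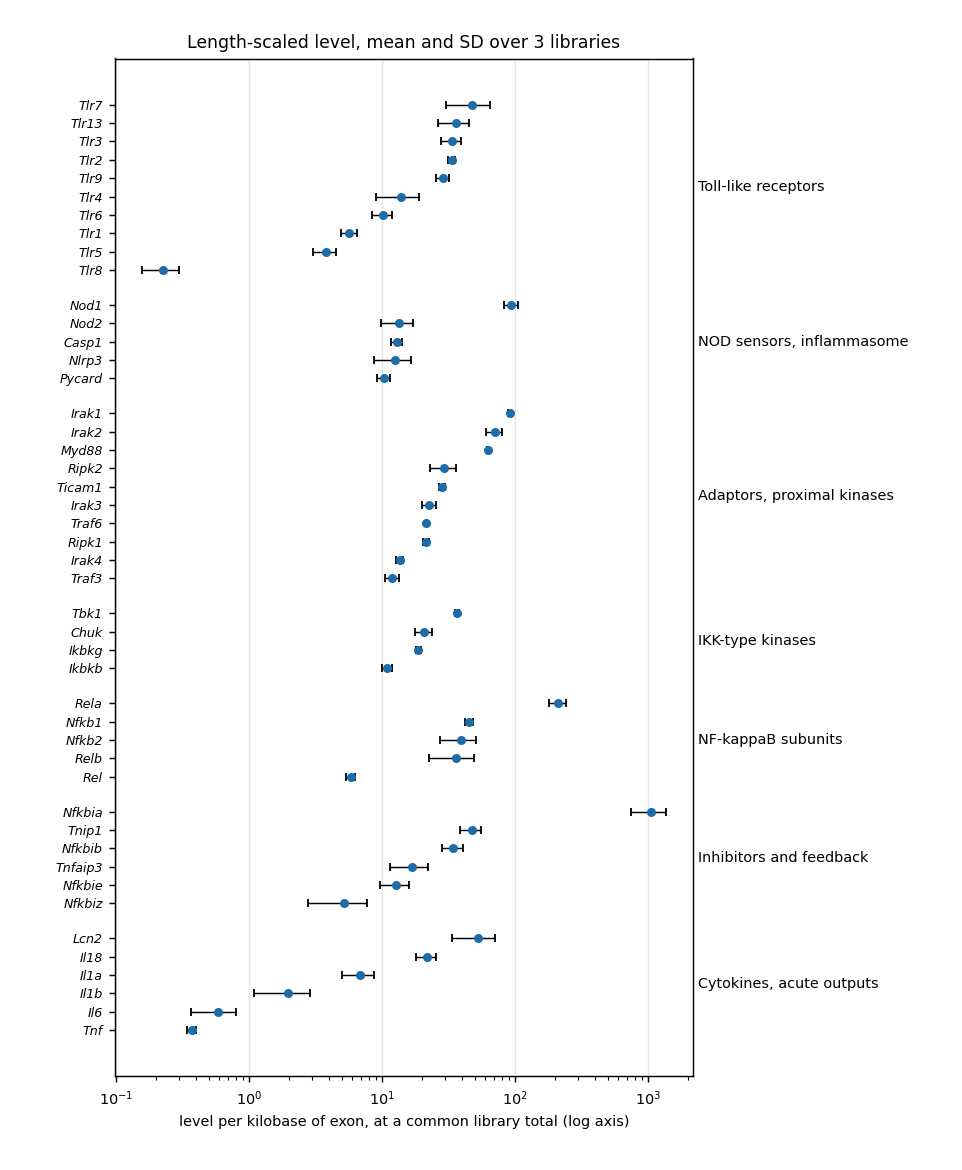
Length-scaled level (counts per kilobase of exon at a common library total, log axis) of the 46 genes within each role, from highest to lowest, as mean with the SD over 3 libraries. Nfkbia at 1065 and Rela at 211 lead, and the cytokine genes Il1b, Il6 and Tnf lie at 1.98, 0.582 and 0.371.

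Among the cytosolic sensors, Nod1 had a higher length-scaled level than every Toll-like receptor in all 3 libraries. Nod1, which detects peptidoglycan fragments of mostly Gram-negative bacteria, had 122, 153 and 143 CPM, or a length-scaled level of 94.0 ± 11.5. Nod2, the sensor of muramyl dipeptide, had 13.5, 22.1 and 23.5 CPM. It was lower in replicate 1 than in both other libraries. The inflammasome genes were low, and of similar level when scaled to annotated exon length. That length was 4057 bases for Nlrp3, 3800 for Pycard and 1497 for Casp1, and the similarity depends on it. Nlrp3, the sensor, had a length-scaled level of 12.6 ± 3.92. The adaptor gene Pycard had 10.3 ± 1.13. The protease gene Casp1, whose product cleaves the precursors of interleukins 1 beta and 18, had 12.96 ± 1.33. In CPM, Nlrp3 had 19.6, 10.3 and 14.8 and was lowest in replicate 2, whereas Casp1 (6.29, 5.22 and 5.46 CPM) and Pycard (12.7, 10.7 and 10.7 CPM) varied less. For Pycard, 12.8% of the exonic length lies under exons of Gm45205 on the other strand.

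The adaptors and kinases between receptor and IKK differed less between libraries than the set as a whole, and about as much as other detected genes. Their median fold between the highest and the lowest library was 1.17. It was 1.35 over all members and 1.201 over all genes at 1 CPM or more in every library. Of the 10 genes, none was 2-fold apart, against 2.41% of those genes, a share too small for 10 genes to fall below. Traf6, the ubiquitin ligase downstream of MyD88, had 49.7, 48.6 and 50.4 CPM. Irak1, the most abundant kinase of the group, had 128, 122 and 127 CPM. Myd88, the adaptor of nearly all Toll-like receptors, had 46.3, 46.2 and 48.2 CPM, with 11.3% of its exonic length under exons of the neighbouring Acaa1a. For each of these 3 genes the highest library was 1.04-fold over the lowest. Irak2, a kinase of the same complex, had 78.8, 87.0 and 107 CPM, and Irak4, the kinase that starts the cascade, 19.8, 18.3 and 21.6 CPM. The inhibitory family member Irak3 had 25.1, 20.4 and 27.4 CPM. Ticam1, which encodes TRIF, the adaptor of Tlr3 and of endosomal Tlr4, had 23.3, 25.1 and 25.6 CPM. Traf3, which directs signals toward interferon induction, had 24.7, 28.3 and 23.9 CPM. Ripk1, a kinase shared with tumour necrosis factor signalling, had 48.6, 51.4 and 55.9 CPM. The widest of the group was Ripk2, the kinase that serves Nod1 and Nod2, with 19.3, 29.4 and 23.9 CPM, lowest in replicate 1 as Nod2 was.

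The kinases that act on the IkappaB proteins and their relatives had a median fold of 1.14 between the highest and the lowest library, against 1.201 over all genes at 1 CPM or more in every library. Ikbkg, the regulatory IKK subunit NEMO, had 45.5, 44.4 and 43.6 CPM. Tbk1, the kinase of the interferon branch, had 41.1, 42.8 and 42.1 CPM. The catalytic subunits were more variable, with 35.4, 26.4 and 30.2 CPM for Chuk (IKK alpha). For Ikbkb (IKK beta) the values were 58.8, 56.2 and 69.0 CPM. Per length the order turned round, since the annotated exons of Ikbkb are long: the length-scaled level of Ikbkb was 0.442, 0.568 and 0.609 times that of Chuk in replicates 1, 2 and 3. The annotated exons add up to 19078 bases for Ikbkb and 5087 for Chuk. Which of the 2 genes is higher thus depends on the annotated lengths.

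Of the NF-kappaB subunits Rela had the highest level in every library, and the 2 subunits of the alternative pathway were low in replicate 1. Rela, the transactivating subunit of the classical dimer, had 158, 202 and 208 CPM, and its partner Nfkb1 had 146, 163 and 172 CPM. Their length-scaled levels were 211 ± 29.5 and 45.5 ± 3.31. The annotated exons of Nfkb1 add up to 12061 bases and those of Rela to 3072, so the size of this gap depends on the annotated lengths. Relb, the partner of p52 in the alternative pathway, had 24.1, 53.0 and 44.8 CPM. Nfkb2, from which p52 is made, had 34.3, 63.5 and 60.0 CPM, with 18.1% of its exonic length under exons of AC114539.1 on the other strand. Both were lowest in replicate 1, and so was their share of the subunits: the length-scaled level of Relb was 0.121, 0.207 and 0.171 times that of Rela, and that of Nfkb2 was 0.620, 1.03 and 0.918 times that of Nfkb1. Rel, the lymphoid and myeloid subunit, was low and even at 13.6, 12.6 and 11.9 CPM.

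The inhibitors and feedback genes differed more between libraries, with a median fold of 1.77 against 1.201 over all genes at 1 CPM or more in every library, and 5 of the 6 were lowest in replicate 1. Nfkbia had 330.4, 543 and 631 CPM, and its length-scaled level was 3.997, 5.12 and 5.80 times that of Rela. Tnfaip3, which encodes the ubiquitin-editing enzyme that ends NF-kappaB signalling, had 23.2, 37.0 and 46.8 CPM. Its binding partner Tnip1 had 38.6, 55.1 and 52.7 CPM. Replicate 1 was the lowest for all 3. Nfkbie, the inhibitor IkappaB epsilon, had 8.71, 14.1 and 11.3 CPM, and Nfkbib, IkappaB beta, had 17.6, 24.95 and 22.9 CPM, with 16.4% of its exonic length under exons of Ccer2. Nfkbiz, a nuclear IkappaB protein that helps to switch on secondary response genes, was the exception. It had 5.86, 11.5 and 5.44 CPM, high in replicate 2 alone and lowest in replicate 3.

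Promoter sequences are shown for 4 subunit and inhibitor genes and for Tlr2. The 4 are those lowest in replicate 1, with the highest library 1.5-fold or more over it and a window matching the NF-kappaB consensus. Tlr2 holds matches as well and was among the steadiest genes. Each window is the RefSeq sequence of build GRCm38.p6 from 250 bases before to 50 bases after an annotated start, 5′ to 3′ on the gene's strand, with matches on either strand in capitals and overlapping matches run together. The count table is on build GRCm39, and no coordinate was carried between the builds. The Nfkbia window is chr12:55492598-55492897 (minus strand), with a match 29 bases upstream of the start. That of Nfkb2 is chr19:46304487-46304786 (plus strand), with matches 39 and 11 bases upstream, and is the first of 3 windows for this gene, all of which hold a match. The Tnfaip3 window is chr10:19015361-19015660 (minus strand), with matches 125 and 12 bases upstream; the other of the 2 windows for this gene holds none. That of Nfkbie is chr17:45555450-45555749 (plus strand), with a match 106 bases upstream, and that of Tlr2 is chr3:83841559-83841858 (minus strand), with matches 173 and 8 bases upstream.
Nfkbia: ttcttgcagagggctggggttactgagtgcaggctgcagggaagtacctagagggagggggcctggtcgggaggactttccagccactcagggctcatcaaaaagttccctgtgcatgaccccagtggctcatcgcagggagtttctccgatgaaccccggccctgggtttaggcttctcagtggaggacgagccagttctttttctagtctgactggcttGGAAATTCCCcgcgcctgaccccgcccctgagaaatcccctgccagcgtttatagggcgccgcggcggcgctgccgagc
Nfkb2: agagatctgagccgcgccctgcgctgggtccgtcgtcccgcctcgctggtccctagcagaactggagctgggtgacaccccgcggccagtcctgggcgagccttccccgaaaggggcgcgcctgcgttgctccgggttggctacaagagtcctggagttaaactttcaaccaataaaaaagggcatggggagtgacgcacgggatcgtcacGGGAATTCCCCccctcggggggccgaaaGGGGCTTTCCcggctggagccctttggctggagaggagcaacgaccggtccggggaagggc
Tnfaip3: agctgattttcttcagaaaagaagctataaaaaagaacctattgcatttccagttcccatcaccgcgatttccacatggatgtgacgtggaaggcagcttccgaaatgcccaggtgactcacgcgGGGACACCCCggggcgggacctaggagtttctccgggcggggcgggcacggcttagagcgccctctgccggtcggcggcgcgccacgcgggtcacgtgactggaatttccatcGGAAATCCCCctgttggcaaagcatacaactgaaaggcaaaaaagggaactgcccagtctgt
Nfkbie: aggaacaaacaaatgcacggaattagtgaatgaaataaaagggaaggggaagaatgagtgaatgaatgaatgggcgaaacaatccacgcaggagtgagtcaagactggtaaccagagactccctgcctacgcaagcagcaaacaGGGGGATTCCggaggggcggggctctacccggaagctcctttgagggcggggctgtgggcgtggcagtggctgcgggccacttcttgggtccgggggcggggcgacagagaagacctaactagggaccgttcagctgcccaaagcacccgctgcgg
Tlr2: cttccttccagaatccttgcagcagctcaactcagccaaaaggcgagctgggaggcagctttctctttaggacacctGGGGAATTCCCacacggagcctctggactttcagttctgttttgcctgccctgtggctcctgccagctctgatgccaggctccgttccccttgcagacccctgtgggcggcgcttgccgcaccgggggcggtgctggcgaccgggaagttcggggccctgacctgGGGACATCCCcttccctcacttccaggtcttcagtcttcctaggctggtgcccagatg

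Of the 46 genes, 39 have a window in the RefSeq table; those without are Ikbkb, Nfkb1, Nfkbiz, Relb, Ripk2, Tlr4 and Tlr7. A match was found for 11 of the 39, against 5.14% of the 27025 genes in the table, and in 4.51% of all 32851 windows. The 11 are Nfkbia, Nfkbie, Nfkb2, Rel, Tnfaip3, Tnip1, Traf3, Tlr2, Tlr3, Nlrp3 and Il6. A match is a description of these letters and does not show binding. Of the 11 genes with a match, 5 were lowest in replicate 1, 3 in replicate 2 and 3 in replicate 3. Of the 28 whose windows hold none, 9 were lowest in replicate 1, 16 in replicate 2 and 3 in replicate 3. The shares lowest in replicates 1, 2 and 3 were thus 45.5%, 27.3% and 27.3% with a match and 32.1%, 57.1% and 10.7% without. Over all genes tested they were 35.6%, 30.9% and 33.5%. A link between a match and the lowest library was not tested.

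Transcripts of the classical inflammatory cytokines were scarce, while Lcn2 was well detected. Tnf had 22, 23 and 29 counts, or 0.169, 0.165 and 0.200 CPM. Il6 had 69, 33 and 69 counts, or 0.530, 0.236 and 0.475 CPM, and the exact 95% Poisson interval of replicate 2 (0.163 to 0.332 CPM) lay below those of replicates 1 (0.413 to 0.671 CPM) and 3 (0.370 to 0.602 CPM). With 0.976, 1.61 and 0.696 CPM, Il1b was highest in replicate 2, where the exact 95% Poisson interval of 1.41 to 1.83 CPM lay above those of replicates 1 (0.814 to 1.16 CPM) and 3 (0.567 to 0.845 CPM). These intervals cover counting error only. The edgeR test of spread between libraries, described below, gave unadjusted p = 0.167 for Il6 and 0.0890 for Il1b. Il1a, the other interleukin 1 gene, was higher, with 5.09, 3.06 and 3.67 CPM, and 11.2% of its exonic length lies under exons of Gm14023 on the other strand. Il18, which is made as a precursor and needs caspase 1, had 7.48, 6.55 and 5.52 CPM and a length-scaled level of 21.7 ± 3.66, above that of Casp1. Lcn2, the acute-phase gene of lipocalin 2 that withholds iron from bacteria, had 23.4, 46.3 and 51.2 CPM and was lowest in replicate 1. The neutrophil genes S100a8 (4.68, 2.42 and 0.909 CPM) and S100a9 (7.45, 5.26 and 1.39 CPM), markers of cells that also make Lcn2, ran in another order, highest in replicate 1. Their part in the level of Lcn2 was not tested.

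No member passed the test of spread between libraries after adjustment, and 11 did before it. The test was edgeR's quasi-likelihood dispersion test, which asks whether a gene varies more between libraries than the trend for genes of its abundance, with Benjamini-Hochberg adjustment over all 18087 genes tested. It called 0 of the 46 members at an adjusted p under 0.05, against 0.0829% of all genes tested. At an unadjusted p under 0.05 there were 11 members (23.9%), against 5.18% of all genes tested, and DESeq2 marked 0 members as dispersion outliers. The 11 were Lcn2, Relb, Tlr7, Tnfaip3, Nfkb2, Tlr4, Tlr13, Nfkbiz, Nod2, Nlrp3 and Nfkbia. The lowest adjusted p values were those of Lcn2 (0.508), Relb (0.517) and Tlr7 (0.604) in edgeR's test. Without replicate 2 the test called 2 members, Lcn2 (adjusted p = 0.00421, edgeR) and Tnfaip3 (adjusted p = 0.0170, edgeR), both lower in replicate 1 than in replicate 3. That is 4.35% of the members, against 0.436% of all genes tested on the same 2 libraries.

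By size, 8 of the 46 members (17.4%) were at least 2-fold apart between their highest and lowest library, against 8.93% of the 18087 genes tested. They were Il1b at 2.31-fold, Il6 at 2.25-fold, Relb at 2.20-fold, Lcn2 at 2.18-fold, Nfkbiz at 2.12-fold, Tlr7 at 2.10-fold, Tnfaip3 at 2.02-fold and Tlr8 at 2.02-fold. Low counts widen such ratios: among genes at 1 CPM or more in every library, 5 of 42 members (11.9%) were 2-fold apart, against 2.41% of 13211 genes. The count rests on all 3 libraries. Without replicate 1 it was 4 (8.7%, against 4.46% of all genes tested), and without replicate 3 it was 3 (6.52%, against 4.0%). Without replicate 2 it was 2 (4.35%), no more than the 4.5% of all genes tested. At the even end, 13 members (28.3%) differed by less than 1.2-fold, against 39.0% of the genes tested. The median fold was 1.35 over the members and 1.26 over all genes tested.

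**Figure D3:**
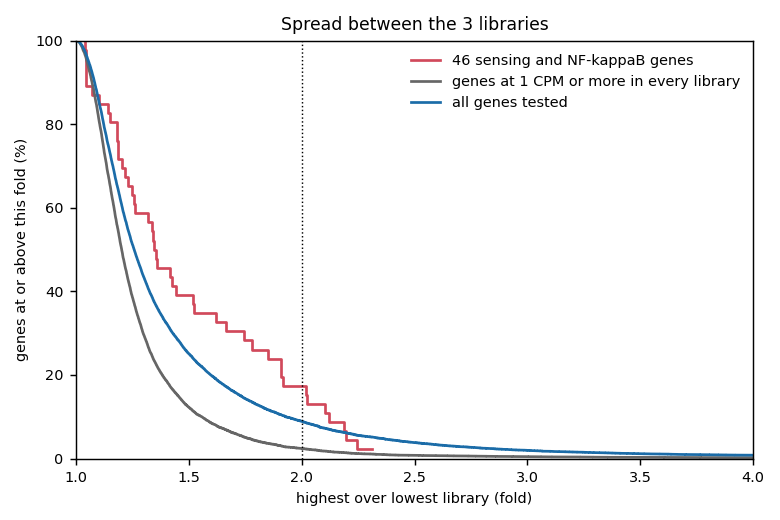
Share of genes (%) at or above a given fold between the highest and the lowest of the 3 libraries, for the 46 sensing and NF-kappaB genes, for genes at 1 CPM or more in every library and for all genes tested. At the dotted line of 2-fold the shares are 17.4%, 2.41% and 8.93%. Among the 42 members at 1 CPM or more in every library the share is 11.9%.

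The library in which most members were highest or lowest differed between roles, counted over even and uneven members alike. Over all 46 members, 19 (41.3%) were highest in replicate 1, 11 (23.9%) in replicate 2 and 16 (34.8%) in replicate 3, against 35.5%, 30.0% and 34.5% of the genes tested. The order of replicates 2 and 3 depended on scaling: by total counts, 15 members were highest in replicate 2 and 11 in replicate 3. Lowest values were found in replicate 1 for 17 members (37.0%), in replicate 2 for 22 (47.8%) and in replicate 3 for 7 (15.2%), against 35.6%, 30.9% and 33.5% of the genes tested. Of the 10 Toll-like receptors, 9 were highest in replicate 1 and 9 were lowest in replicate 2, which became 7 with scaling by total counts, where Tlr1 and Tlr3 were lowest in replicate 3. Of the 11 subunit and inhibitor genes, 9 were lowest in replicate 1 (4 of 5 and 5 of 6), under each of the 3 other scalings as well. The median log2 deviation over all 46 members was -0.01, -0.02 and 0.04 in replicates 1, 2 and 3, against 0.00 in each over all genes tested; members that went opposite ways enter it together.

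All Toll-like receptor genes but Tlr2, which was lowest in replicate 3, were lowest in replicate 2 (except Tlr1 and Tlr3 with scaling by total counts), as were markers of microglia and border macrophages and most markers of lymphocytes and smooth muscle. The Toll-like receptors had median log2 deviations from their own means of 0.24, -0.32 and 0.02 in replicates 1, 2 and 3, against 0.00 in each over all genes tested. The 9 microglial markers had 0.08, -0.21 and 0.06, and 9 of 9 were lowest in replicate 2. The 5 border macrophage markers had 0.32, -0.70 and 0.15, and 5 of 5 were lowest in replicate 2. Lymphocyte markers had 0.19, -0.46 and 0.26, with 4 of 5 lowest in replicate 2, and smooth muscle markers 0.07, -0.14 and 0.11, with 3 of 4. The summed level of the microglial markers differed by 1.30-fold between libraries. Single markers were 1.11-fold (Aif1) to 1.77-fold (P2ry12, highest in replicate 1) apart, so the sum does not stand for every microglial gene. Set against this sum, Tlr7 had 10.6, 6.51 and 7.94 CPM per 1000 microglial CPM, or 1.62-fold apart. On the same scale Tlr4 was 1.49-fold, Nlrp3 1.47-fold and Tlr13 1.37-fold apart, Tlr9 1.08-fold and Tlr2 1.29-fold. The part of the cell mixture in these differences was not tested.

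Most subunit and inhibitor genes were lowest in the same library as most NF-kappaB targets and the immediate early genes. Their median log2 deviations were -0.25, 0.11 and 0.14 for the NF-kappaB subunits and -0.34, 0.20 and 0.11 for the inhibitors in replicates 1, 2 and 3. Over a list of 15 known NF-kappaB target genes outside the set, 13 could be tested, with -0.66, 0.46 and -0.10. This list and that of the immediate early genes were chosen with earlier results of these data known. Of these 13, 10 were highest in replicate 2 and 9 lowest in replicate 1. Ccl2 and Sod2 were highest in replicate 1, and Birc3 in replicate 3. Ccl7, Ptgs2 and Sod2 were lowest in replicate 3, and Ccl2 (0.499, 0.207 and 0.289 CPM) in replicate 2. The leukocyte adhesion gene Icam1 had 83.2, 298 and 156 CPM, the chemokine gene Cxcl10 2.01, 9.91 and 2.65 CPM, and the adhesion gene Sele 0.484, 3.33 and 0.964 CPM. Immediate early genes, which react to stimulation within minutes, deviated further, with -0.93, 0.86 and 0.00, and 9 of 9 were highest in replicate 2 and lowest in replicate 1. Endothelial markers had -0.15, 0.05 and 0.09, with 7 of 8 lowest in replicate 1, and pericyte markers -0.25, 0.21 and 0.02. Most of the NF-kappaB targets peaked in replicate 2, but Nfkbia, Tnfaip3, Rela and Lcn2 were highest in replicate 3. With scaling by total counts, Rela was highest in replicate 2. The part of the early response and of the cell mixture in these differences was not tested.

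**Figure D4:**
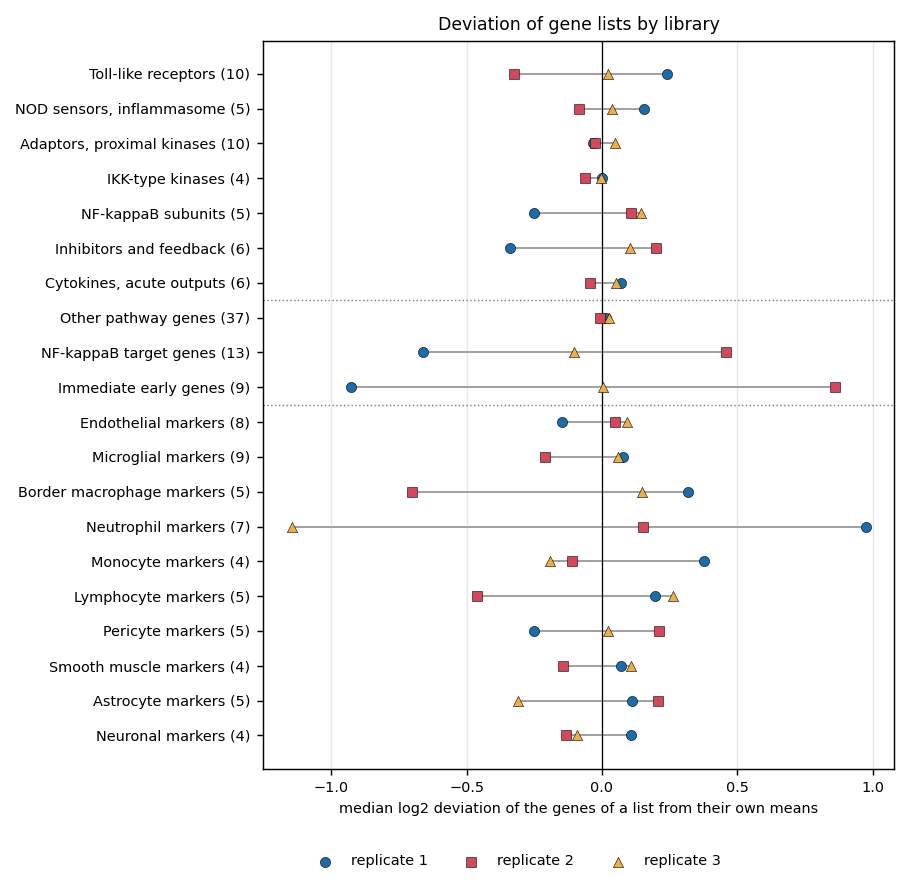
Median log2 deviation from each gene's own 3-library mean, per library, for the 7 roles (above), 3 lists of related genes (middle) and 10 marker lists (below), with the number of genes tested in brackets. Toll-like receptors lie between -0.32 in replicate 2 and 0.24 in replicate 1, microglial, border macrophage, lymphocyte and smooth muscle markers also lie lowest in replicate 2, and inhibitors lie at -0.34 in replicate 1, as NF-kappaB targets and immediate early genes do in direction.

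**Figure D5:**
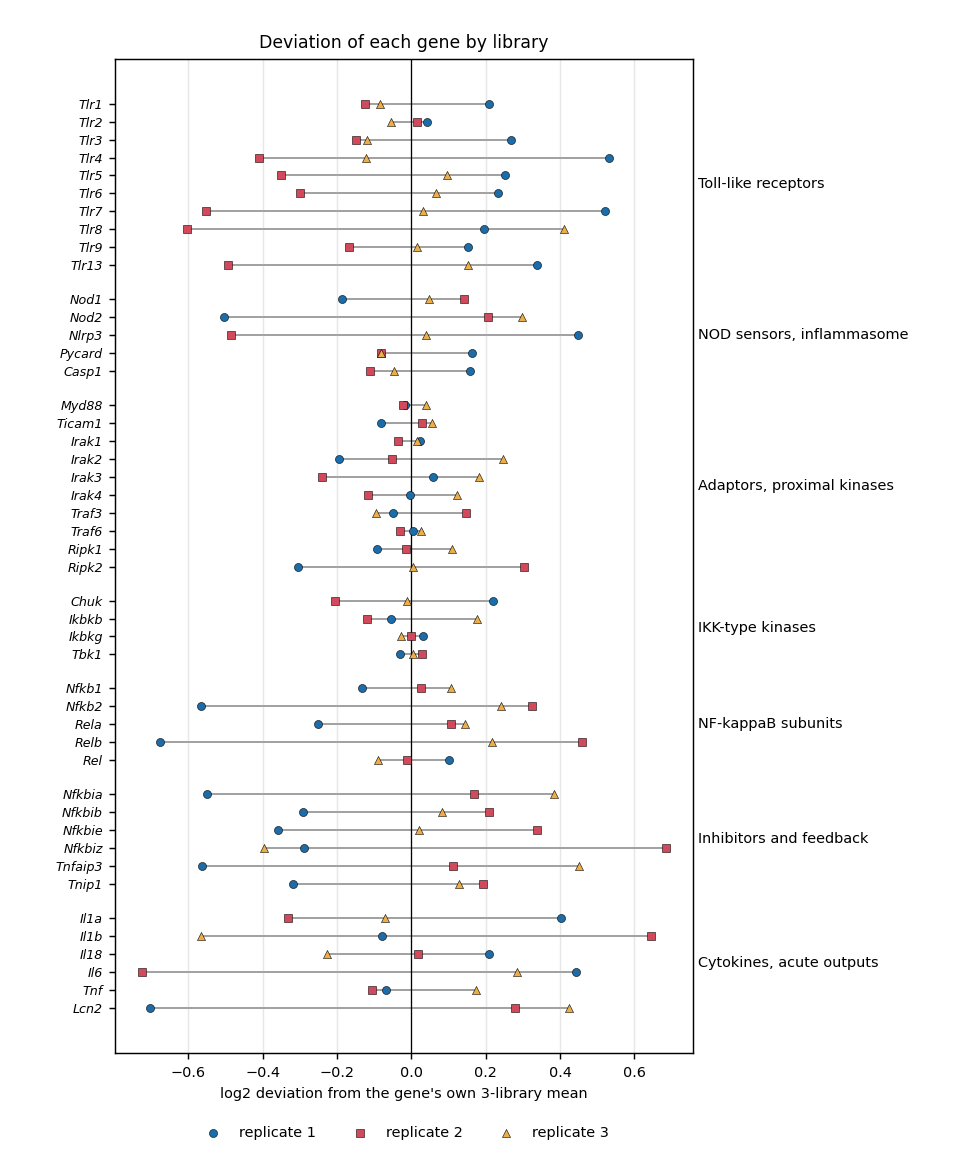
Log2 deviation of each of the 46 genes from its own 3-library mean, by role, with 1 point per library. Of the 10 Toll-like receptors, 9 have replicate 2 at the low end, of the 6 inhibitor and feedback genes 5 have replicate 1 there, and Myd88, Irak1, Traf6, Ikbkg and Tbk1 lie close to 0 in all 3 libraries.

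Further genes of the pathway outside the set had a median fold of 1.19 between libraries. It was 1.26 over all genes tested and 1.201 over all genes at 1 CPM or more in every library. Of 38 such genes, 35 were at 1 CPM or more in every library and 37 could be tested. Of the 37, 2 were 2-fold apart, against 8.93% of all genes tested. Both were among the 35, and of all genes at 1 CPM or more in every library only 2.41% were 2-fold apart. edgeR's test called 0 of them at an adjusted p under 0.05, and the same 2 genes had an unadjusted p under 0.05, against 5.18% of all genes tested. Il1r1, the interleukin 1 receptor that brain endothelium carries, had 218, 99.995 and 189 CPM, lowest in replicate 2. Bcl3, a nuclear IkappaB protein, had 23.1, 49.4 and 29.5 CPM, highest in replicate 2. Both thus resembled members, Il1r1 the Toll-like receptors and Bcl3 Nfkbiz. The chaperone gene of the endosomal receptors, Unc93b1, was abundant at 208 ± 5.37 CPM (SD, n = 3), as was the brake on signalling Tollip at 169.7 ± 10.1 CPM. The cytosolic RNA sensors Rigi (93.0 ± 6.02 CPM) and Ifih1 (81.5 ± 3.46 CPM) were 1.13-fold and 1.09-fold apart between libraries. The DNA signalling gene Sting1 (85.3 ± 10.3 CPM) was 1.25-fold apart. Cgas, which makes the messenger that Sting1 senses, had 4.28 ± 0.373 CPM. No exon length was matched for Sting1, so the levels of these 2 genes cannot be set side by side. The interleukin 1 receptor antagonist Il1rn had 0.200, 0.114 and 0.0413 CPM, and Nlrc4 and Nfkbid were the other genes under 1 CPM in at least 1 library.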

How the data were processed

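Polyadenylated RNA was sequenced as paired reads of 150 bp from stranded libraries made of 400 ng total RNA, per the labels' protocols. The authors deposited raw whole-number counts, 1 row per gene symbol, with no normalization; per the submitters' processing notes, featureCounts and Subread 1.4.6-p5 were used with build GRCm39. Aligner, annotation release, strand setting and handling of multi-mapping reads: not given in the sources used here. Without the strand setting, reads of a gene and of a partner on the other strand may be mixed.

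CPM used edgeR 4.0.16 (TMM, R 4.3.3). For spread between libraries, filterByExpr kept 18087 genes, which were fitted by quasi-likelihood with an intercept alone; a gene's quasi-dispersion over the prior trend gave an F statistic (upper tail), adjusted by Benjamini-Hochberg over all 18087, threshold 0.05. The procedure was tested on simulated data. DESeq2 1.42.0 gave size factors and dispersion outliers. Lengths, exon overlap and shared 75-base stretches came from GENCODE M21 (build GRCm38, 48985 genes matched by symbol with 98.2% of the counts, and all 46 members), used without coordinates. Tables were handled in Python 3.11.15 with pandas 2.3.3. Libraries whose replicate numbers come from the titles are treated as separate mice; if they were not, the spread would be technical.

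The members and lists were chosen with earlier results of these data known. Values are given for members that were called or 2-fold apart, for the highest and lowest of each role and for those needed to read them. Alternatives were other scalings, filters, priors and thresholds, and leaving out each library.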

Additional observations from a re-analysis of the deposited data

How the results depend on the processing

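The number of members detected, 42, was 42 or 43 under every scaling, threshold and left-out library tried. The number at least 2-fold apart, 8, lay between 6 and 8 under other scalings (against 8.67% to 9.22% of all genes tested) and between 2 and 4 with a library left out (against 4.0% to 4.5%). With no filter it was 8, or 17.4% of the members, below the 42.1% of all genes with any count. It was 18 at 1.5-fold (against 25.1% of all genes tested) and 5 among genes at 1 CPM or more in every library, an alternative added after the data were seen. Members highest in replicate 2 numbered 11 and those highest in replicate 3 numbered 16. With scaling by total counts this order turned round, to 15 and 11. With another library left out they numbered 16 to 20 and 24 to 30, since fewer libraries compete. edgeR's test called 0 members under other scalings, a filter on mean CPM and a robust prior, 0 to 2 with a library left out, and 2 with no filter (Lcn2, adjusted p = 0.0282, and Relb, adjusted p = 0.0329), against 0.038% to 0.436% of all genes with a library left out and 0.567% with no filter. Adjusted p ranged from 0.00421 to 0.997 for Lcn2, from 0.0329 to 0.992 for Relb and from 0.0170 to 0.992 for Tnfaip3 over the edgeR settings. The median level was 27.4 CPM, and 21.5 per kilobase of exon, which is another unit. Under other scalings, 5 levels of single members moved by 1 SD or more. The highest library was the same under 3 other scalings for 40 members and the lowest for 38, and the exceptions include Myd88, Irak1, Traf6, Nfkb1 and Rela. No paired analysis was possible because there is a single group. With 3 libraries, shifts of less than several-fold may go uncalled. Counting intervals overlap between all 3 libraries for Tlr8 and Tnf, but not for Il1b and Il6. They cover counting error only, and edgeR's test of spread gave unadjusted p = 0.0890 for Il1b and 0.167 for Il6.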
